A study of Mus musculus with 8 samples.

Results

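Transcription start site (TSS) clusters deep inside introns were examined in E14 mouse embryonic stem cells (mESCs) and in double knockout (DKO) cells that lack the proteins PWWP2A and PWWP2B. A cluster counted as deep intronic where its dominant TSS, the base with the most capped 5′ ends, lay over 500 bp from every transcript start of its strand, outside every exon of that strand, and over 10 kb downstream of the start of the gene that held it (the nearest such start where several genes did). By this rule, applied to GENCODE release M21 on mm10, 2193 of 32857 clusters were deep intronic in E14, 2210 of 33005 in DKO clone A1 and 2175 of 32870 in DKO clone C7. Joined across lines where they overlapped on 1 strand, they formed 2239 of 33324 regions.

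The groups were wild-type E14 cells (3 libraries) and the Pwwp2a/b DKO clones A1 (2 libraries) and C7 (3 libraries), both derived from E14 cells, each DKO line being 1 clone. All were grown with serum and LIF on gelatine, and nuclear RNA was the input of the CAGE-seq, which captures the cap of RNA polymerase II transcripts and reads their first bases. The libraries of each line were merged into 1 deposited set, whose clusters give positions with no expression value. There was therefore no replicate error, no depth per cluster and no test between lines, and each comparison below is a description, with Wilson intervals that cover counting error only.

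Introns are transcribed together with the gene and removed by splicing, so a capped 5′ end within one marks RNA that began, or was capped, inside the gene body. Elongating polymerase leaves trimethylated H3K36 over gene bodies. PWWP2A and PWWP2B bind this mark and belong to complexes with histone deacetylases, and in yeast, loss of a deacetylase complex that reads the mark is known to let transcription start within genes. Introns also hold enhancers, alternative promoters, repeats and genes missing from an annotation, and each of these can give capped RNA.

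Clusters stood within 500 bp of an annotated start of 8 of 8 embryonic stem cell markers in every line, Pou5f1, Nanog and Esrrb among them. They also stood at 8 of 16 markers of other cell types in each line, which were all 4 fibroblast markers (Col1a1, Col1a2, Thy1, Pdgfra), Sox17 and Sox7 of primitive endoderm, and Sox1 and Neurod1 of neural cells. No mesoderm or trophoblast marker had one. The start of Pwwp2a had a cluster in all 3 lines and that of Pwwp2b in none of them, and since the deleted part of each gene is not given in the sources used here, this does not check the knockout. Neither gene held a deep intronic cluster, nor did Wtap, Hnrnpk, Nap1l1 or Ptges3.

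A leading host was Tsix on the X chromosome, the RNA made antisense to Xist, the RNA that silences an X chromosome; Tsix transcription is known to restrain Xist. It held 28 deep intronic clusters in E14, with 29 in A1 and 27 in C7. Of the E14 ones, 25 lay opposite a single exon of Xist (chrX:103460366-103468036), packed into 1290 bp between 103466660 and 103467949. Their bases could be read from the Xist transcript, and they showed that many of these starts fell on a recurring sequence. The 5 windows below, chosen as examples after the sequences were read, run from 40 bases before the dominant TSS of E14 to its 20th base, on the strand of Tsix, with the base before the TSS and the TSS itself in capitals.
Tsix, chrX:103467377-103467436, plus strand: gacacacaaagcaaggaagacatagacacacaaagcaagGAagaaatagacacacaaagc
Tsix, chrX:103467525-103467584, plus strand: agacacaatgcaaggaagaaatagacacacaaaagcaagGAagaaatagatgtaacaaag
Tsix, chrX:103467565-103467624, plus strand: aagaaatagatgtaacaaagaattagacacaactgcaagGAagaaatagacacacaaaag
Tsix, chrX:103467697-103467756, plus strand: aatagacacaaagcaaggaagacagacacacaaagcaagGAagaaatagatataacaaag
Tsix, chrX:103467885-103467944, plus strand: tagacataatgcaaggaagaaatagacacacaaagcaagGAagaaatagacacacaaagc

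The letters AAGGAAGAAATAG, the 13 bases that most often surrounded a dominant TSS at Tsix, occurred 16 times on the Tsix strand of that Xist exon, from 103467305 to 103467945, and 0 times on the Xist strand. The dominant TSS fell on the same A of this run, the base after AAGG, at 13 of the 16 occurrences in both E14 and A1, and at 12 of them in C7. The run was present on either strand in 1 of 32851 RefSeq promoters of 300 bases (0.00304%). Because the letters were picked from these same starts, within repeated sequence of 1 exon, these counts describe the locus and test nothing. In 19 of the 25 readable windows the bases at -1 and +1 were GA, and in 1 of 25 they were a pyrimidine followed by a purine, the pair usual at mammalian TSSs. None of the 28 Tsix clusters had a cluster on the opposite strand within 1000 bp.

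A second gene was an antisense RNA whose clusters lay opposite an exon. Gm45894, on the plus strand of chromosome 8 (122870174 to 122901457), runs antisense to Ankrd11, which encodes an ankyrin repeat regulator of chromatin. It held 14 deep intronic clusters in E14 and A1 and 15 in C7, and had no cluster at its own start. All 14 of E14 lay in intron 4 of 5 and opposite an exon of Ankrd11, between 22.5 and 25.5 kb from the gene's start. The 5 examples below, picked after the sequences were read, are drawn in the same way on the strand of Gm45894.
Gm45894, chr8:122893445-122893504, plus strand: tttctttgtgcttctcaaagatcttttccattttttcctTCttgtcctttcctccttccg
Gm45894, chr8:122893879-122893938, plus strand: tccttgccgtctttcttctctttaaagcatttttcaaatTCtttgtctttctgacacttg
Gm45894, chr8:122893940-122893999, plus strand: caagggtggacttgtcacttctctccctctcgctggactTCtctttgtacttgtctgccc
Gm45894, chr8:122894599-122894658, plus strand: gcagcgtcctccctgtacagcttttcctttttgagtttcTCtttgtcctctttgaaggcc
Gm45894, chr8:122895071-122895130, plus strand: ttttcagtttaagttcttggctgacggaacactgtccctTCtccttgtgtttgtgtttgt

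In 11 of the 14 windows the bases at -1 and +1 were TC, in 2 they were CC and in 1 GT, so that 0 of 14 had a pyrimidine followed by a purine. Unlike those of Tsix, all 14 had an Ankrd11-strand cluster within 1000 bp. Of the 5 deep intronic clusters of E14 nearest to an opposite-strand cluster upstream, 4 were in Gm45894, with 5, 6, 14 and 16 bp between the dominant TSSs of the strands, and the fifth, in Gm47283, had 9 bp. No genome sequence was used, so the bases could be read for 86 of the 2193 clusters of E14 (3.92%), and no share over all deep intronic clusters is given. For comparison, 82.2% of 8472 annotated promoter clusters of E14 that lay inside a RefSeq promoter of their strand had a pyrimidine followed by a purine. As a check of the coordinates, the share was 1.65% or 2.97% when the positions were moved by 1 base to either side. These 2 shares are no background, since a pair that matches at the TSS cannot match after such a move.

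Of the 86, 7 could be read because RefSeq has a gene start there on their own strand, although GENCODE M21 has none within 500 bp. In 6 of these 7 the pair at -1 and +1 was a pyrimidine followed by a purine, and over all 47 readable clusters outside Tsix and Gm45894, these 7 included, in 18. All 7 are given here with the same capitals. Rara encodes a retinoic acid receptor, and its 2 clusters stood 55 bp apart at a RefSeq start of Rara itself. Hist1h2be encodes a histone H2B. The cluster inside Dock8 lay at the start of another gene, Ndufb4b.
Gm13522, chr2:52378577-52378636, plus strand: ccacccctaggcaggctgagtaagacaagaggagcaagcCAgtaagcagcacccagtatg
Rara, chr11:98964777-98964836, plus strand: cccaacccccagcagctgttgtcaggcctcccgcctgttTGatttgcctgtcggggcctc
Rara, chr11:98964832-98964891, plus strand: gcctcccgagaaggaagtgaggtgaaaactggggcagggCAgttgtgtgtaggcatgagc
Hist1h2be, chr13:23585971-23586030, minus strand: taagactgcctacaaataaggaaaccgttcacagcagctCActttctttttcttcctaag
Zfp640, chr13:66680845-66680904, minus strand: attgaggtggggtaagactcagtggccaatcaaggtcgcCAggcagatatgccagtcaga
Dock8, chr19:25033091-25033150, plus strand: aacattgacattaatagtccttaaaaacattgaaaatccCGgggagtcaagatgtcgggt
0610040F04Rik, chr6:108623142-108623201, minus strand: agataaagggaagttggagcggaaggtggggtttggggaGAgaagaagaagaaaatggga

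In all, 11 of the 2193 clusters of E14 (0.502%) were within 500 bp of a RefSeq start on their strand. Of the 1992 clusters whose host has a RefSeq entry of the same symbol on that chromosome, 1918 lay inside the RefSeq span of the host and 74 outside it. Among these 74 were all 9 clusters of Fgfr2 in E14, whose gene in GENCODE M21 stretches over 2961 kb.

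**Figure D1:**
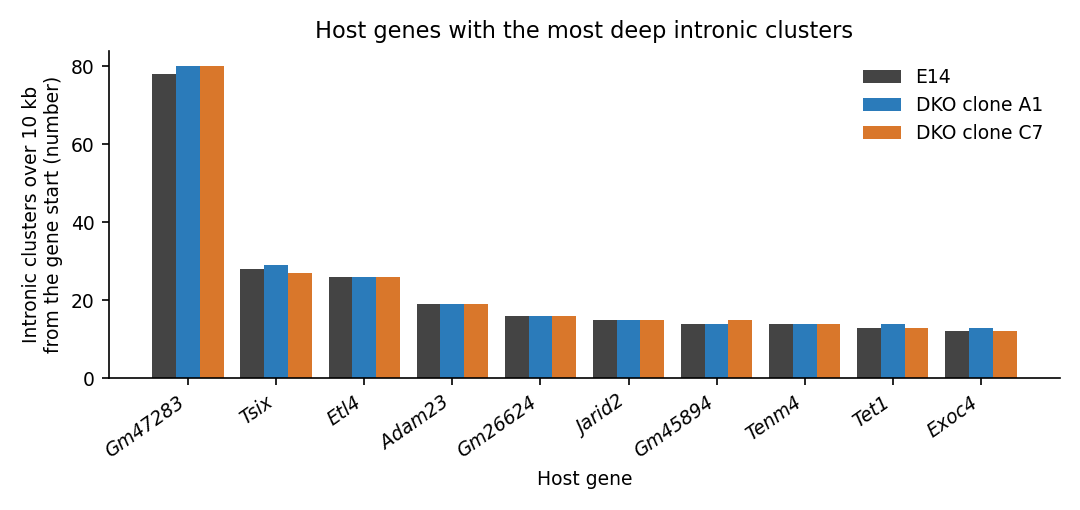
Number of deep intronic clusters (vertical axis) in the 10 host genes that held most of them, in E14, DKO clone A1 and DKO clone C7. Gm47283 held 78 to 80 and the next gene, Tsix, 27 to 29, and in no gene did the lines differ by more than 2.

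Deep intronic clusters were spread over 1192 host genes in E14 (A1, 1203 and C7, 1184), and 827 of the E14 hosts (69.4%) held a single one. A further 66 hosts held 5 or more. Neighbouring clusters of 1 gene were separated by a median gap of 4019 bp (quartiles 142 and 17630 bp, n = 1001 gaps in E14), and 222 of these gaps (22.2%) were at most 100 bp. Clusters of the same gene share its transcription and were not counted as replicates.

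The gene with the most was Gm47283, a gene model annotated as protein-coding on the plus strand of chromosome Y (90784738 to 90816464). It held 78 deep intronic clusters in E14 and 80 in each clone, all within intron 3 of 3. They began 10.3 kb from the gene's start, ended at 29.6 kb and stood a median of 136 bp apart, which is 3.61 clusters per kb of the intronic sequence where the rule could place one, against 15.3 per Mb over all host genes. They were also wide. The interquantile region, which holds the middle of the signal between its 0.1 and 0.9 quantiles, had a median of 14 bp there and reached 341 bp, and 28 of the 78 exceeded 20 bp. Of the 5 widest deep intronic clusters among regions with exactly 1 cluster in each line, 4 were in this gene, with 341, 110, 84 and 84 bp in E14, 341, 111, 51 and 85 bp in A1 and 347, 110, 47 and 84 bp in C7. The remaining one was in Ddx17, an RNA helicase gene, with 91, 80 and 76 bp in E14, A1 and C7. In Gm47283, a pair of wide clusters lay in regions that C7 split in 2, with dominant TSSs at 90812670 (281, 285 and 269 bp in E14, A1 and C7) and 90808770 (164, 153 and 52 bp). Reads that matched several places in the genome had been removed, so these positions rest on unique alignments. RefSeq spans were looked up by symbol only and there was none for Gm47283, which does not show whether the locus is known under another name.

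The other leading hosts were longer genes. Etl4, a gene known for its role in the axial skeleton, held 26 in each line, spread over 8 introns, and all but 1 of those in E14 lay between 627 and 838 kb into the 901 kb gene. Adam23, a cell adhesion protein of neurons without protease activity, held 19 in each line from 10.2 to 145.5 kb, with 5 of those in E14 between 145.2 and 145.5 kb. Tenm4, a teneurin of the cell surface, held 14 in each line, 10 of them 2 bp wide in E14. Exoc4, a subunit of the exocyst, held 12 in E14, 13 in A1 and again 12 in C7. The lincRNA gene Gm26624 held 16 in each line, all in 1 intron and at least 200.2 kb from its start, and had no cluster at its own start. These stood close together, a median of 337 bp apart in E14, and 8 of them lay between 254.7 and 256.3 kb.

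Jarid2 and Tet1 stood out among genes known in mESCs. Jarid2, a cofactor of Polycomb repressive complex 2, held 15 clusters in each line, spread from 12.6 to 174.4 kb. In E14, 4 of them lay between 31.956 and 32.302 kb and 3 between 140.12 and 140.459 kb. These last 3 had an opposite-strand cluster 67, 3 and 34 bp away, and no other cluster of Jarid2 had one within 1000 bp. Tet1, a dioxygenase that oxidizes methylated cytosine, held 13 in E14, 13 in C7 and 14 in A1, and the further one (chr10:62832345-62832347) was listed in no other line. In E14, 5 of the 13 lay within 324 bp of each other, from 23.14 to 23.464 kb, with interquantile widths of 13, 28, 16, 18 and 2 bp. None of the Tet1 clusters had an opposite-strand neighbour within 1000 bp.

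**Figure D2:**
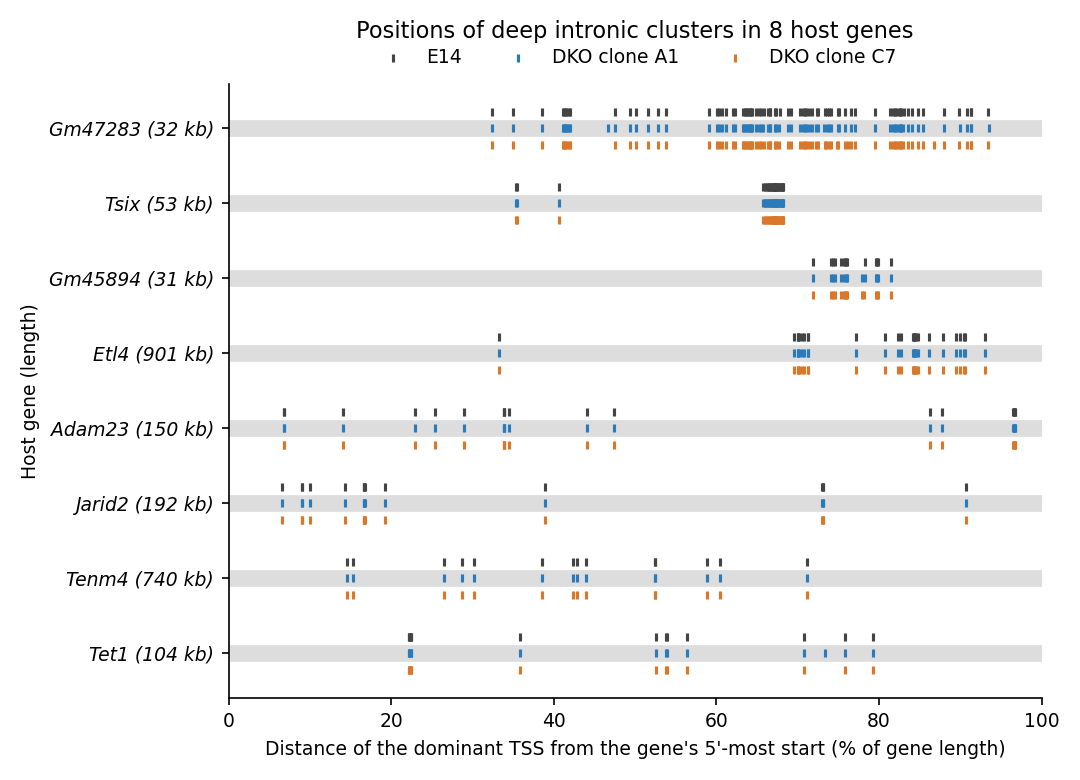
Position of each deep intronic cluster as a percentage of the length of its host gene (horizontal axis), for 8 genes and for E14, clone A1 and clone C7 in separate rows. The rows of the 3 lines nearly coincide in every gene; Tsix and Gm45894 have narrow stacks, Etl4 has its clusters towards the 3′ end, and Tenm4 is scattered.

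The gene lists were written with earlier results of these data known, so their shares describe the lists and test nothing. The lists were read against all genes over 10 kb with a cluster at their own start. Of 8819 such genes in E14, 973 (11%) held a deep intronic cluster. The core pluripotency list stood at 8 of 15 genes (53.3%, median length 31.9 kb against 33.9 kb over all, although Tet1, Esrrb and Tet2 span 104, 161 and 81.5 kb), and the lineage marker list at 0 of 9. The other lists lay between these, with 23 of 92 chromatin regulators (25%, median length 70.0 kb), 13 of 49 signalling genes (26.5%, 68.7 kb), 17 of 67 DNA repair and cell cycle genes (25.4%, 63.2 kb) and 11 of 29 neuronal adhesion and synapse genes (37.9%, 738 kb). The share of hosts rose with gene length, from 3.05% of 3964 genes of 10 to 30 kb (Wilson interval 2.56 to 3.64%) to 13.7% of 3462 genes of 30 to 100 kb, 25.1% of 1186 genes of 100 to 300 kb and 37.7% of 207 longer genes (31.4 to 44.5%). Every list but core pluripotency had a median length above that of all such genes, with 76.5 kb for the lineage markers.

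Of the core pluripotency genes, Esrrb, a nuclear receptor of the pluripotency network, held 9 in E14 and 8 in each clone. They formed 3 groups in E14, with 3 clusters at 110.1 to 118.1 kb, 4 at 141.0 to 141.4 kb and 2 at 143.8 to 143.9 kb, and none was 2 bp wide. The cluster not counted in the clones (chr12:86504904-86504911) had its dominant TSS at 86504911 in E14. It was present in C7 too, but with the dominant TSS at 86504904, which fell within 500 bp of an annotated start, and it was absent from A1. Tet2, a second methylcytosine dioxygenase, held 8 in each line, and Klf5, a zinc finger factor of self-renewal, held 3 in each line, at 12.2, 12.2 and 13.6 kb in its last intron in E14. Lin28b, Sall4, Tfcp2l1 and Trim28 held 1 each in every line, that of Trim28 outside its RefSeq span.

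Chromatin regulators other than Jarid2 included Kat6b, a histone acetyltransferase, with 11 in each line, Kdm4c, a demethylase of H3K9, with 9, and Mtf2, another cofactor of Polycomb repressive complex 2, with 6. Suz12, a core subunit of that complex, held 2 in each line. Pola1, the catalytic subunit of DNA polymerase alpha, led the repair and cell cycle list with 12 in each line, 8 of them 2 bp wide in E14, followed by Nipbl, the cohesin loader, and Rad51b with 3 each and E2f3 with 2. Of the signalling genes, Apc, a negative regulator of Wnt signalling, held 2 in each line, while the 9 of Fgfr2 in E14 lay outside its RefSeq span. Immp2l with 5 and Cacna1a with 4 followed Tenm4 and Exoc4 in the neuronal adhesion and synapse list, whose name does not describe every member. The members of these lists differed between lines in few cases, such as Nsd3 (0 in E14, 1 in A1, 0 in C7), Smc4 (0, 0 and 1), Smc3 (1, 1 and 0), Top1 (0, 1 and 0) and Top2a (0, 1 and 0).

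Most hosts were active from their own start. In E14, 973 of the 1192 hosts (81.6%) had a cluster within 500 bp of an annotated start of theirs, 979 of 1203 in A1 and 967 of 1184 in C7. Of 9792 genes over 10 kb without such a cluster, 219 (2.24%) were hosts in E14. Protein-coding genes held 1957 of the 2193 clusters of E14 (89.2%), lincRNA genes 114 and antisense RNA genes 63.

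The distance to the host's start had a median of 36.4 kb in E14 (quartiles 20.5 and 84.0 kb). The farthest 5 clusters present in all lines all lay in Gm20388, a single gene model of 4435 kb, at 2037.1, 2037.1, 2532.9, 2642.3 and 3927.3 kb, in its first intron, and this model held 8 in each line. Inside a RefSeq span, the farthest was in Ptprd, a receptor tyrosine phosphatase of neurons, 1997.8 kb from its start, followed by Pde4d, a cAMP phosphodiesterase, at 1411.8 and 1235.6 kb. Near the limit of 10 kb itself, 45 intronic clusters of E14 lay between 9 and 10 kb and 62 between 10 and 11 kb. Near the limit of 500 bp, 31 of the deep intronic clusters of E14 stood less than 100 bp beyond it, the nearest at 502 bp.

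Within the host genes, the clusters were compared with the 143.5 Mb of intronic sequence in which the rule could have placed them. The first intron held 11.4% of E14 clusters and 14.6% of these bases, whereas the last intron held 14.7% of clusters and 6.05% of bases. The first intron of Gm20388 spans 4384 kb, and its part in the first-intron bases was not separated out. All 78 clusters of Gm47283 were in its last intron, and without Gm47283, Tsix and Gm45894 the last intron held 10.4% of clusters and 6.02% of bases. Sequence opposite an exon of the other strand held 3.65% of clusters (80, of which 25 were in Tsix and 14 in Gm45894) and 0.977% of bases, and without these 3 genes 1.98% and 0.961%. Along the length of the gene, cut into 10 equal parts, the density was lowest in part 1, with 8.72 clusters per Mb. Part 8 had 18.6, but 16.6 without the same 3 genes, close to the 16.5 of part 5.

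By the position of the dominant TSS, clusters were denser near exons, above all just before an exon. In the last 100 bp of an intron, E14 had 94 clusters, or 59.8 per Mb (Poisson interval 48.4 to 73.2), against 42 clusters or 27.7 per Mb (20.0 to 37.4) in the first 100 bp and 11.5 per Mb (10.8 to 12.2) over 5000 bp before the next exon. A1 had 94 and C7 91 in those last 100 bp. The last 5 bp held the dominant TSS of 21 clusters in E14, or 266 per Mb (165 to 406), with 24 in A1 and 20 in C7. The first 5 bp of introns held that of 7 clusters in E14, or 92.1 per Mb (37.0 to 190), with 6 in A1 and 5 in C7. Of the 21, 12 had the dominant TSS 2 bp and 5 had it 1 bp before the exon, where introns usually end in AG, although the bases were not read here. They included clusters in Pkm (pyruvate kinase, 1 bp), Anp32b (1 bp), Lmna (nuclear lamins, 2 bp), Actn1 (an alpha-actinin, 2 bp), Mdm4 (an inhibitor of p53, 2 bp) and Smc3 (a cohesin subunit, 1 bp), named here after their values were seen. The clusters of Pkm, Anp32b, Actn1, Mdm4 and Smc3 extended into the exon, and only their dominant TSS had to be intronic. That of Pkm, for example, ran from 59668912 to 59668929, with its dominant TSS at 59668912. Where the whole cluster had to meet the rule, 2166 deep intronic clusters remained in E14.

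**Figure D3:**
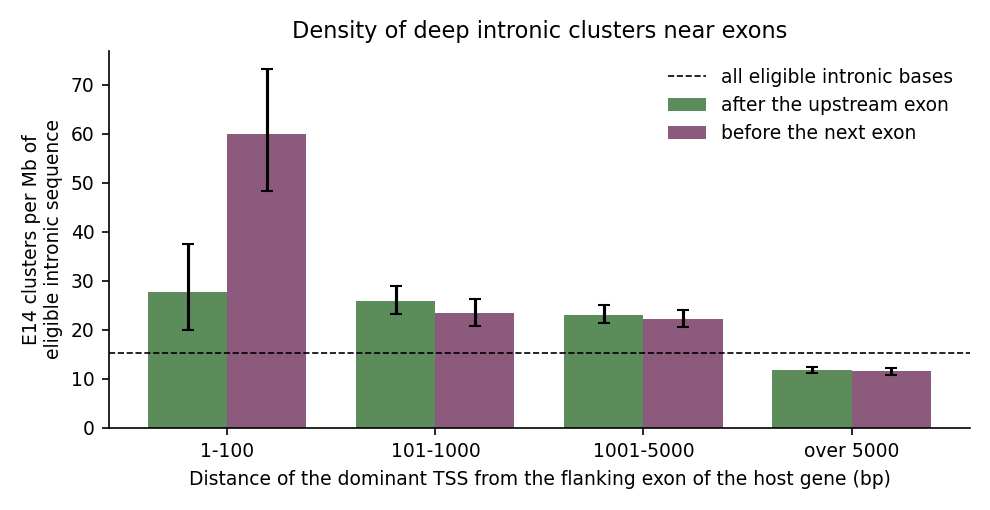
E14 deep intronic clusters per Mb of eligible intronic sequence of the host genes (vertical axis) by distance in bp after the upstream exon or before the next exon (horizontal axis); bars carry 95% Poisson intervals and the dashed line marks 15.3 per Mb over all eligible bases. The bar for the last 100 bp of introns, at 59.8, stands above the others, and both bars for distances over 5000 bp lie under the line.

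Most deep intronic clusters were very narrow. Their interquantile width was 3 bp at the median in each line (quartiles 2 and 11 bp). In E14 it was also 3 bp in exons and 4 bp in introns within 10 kb, against 20 bp at annotated promoters (quartiles 7 and 37 bp) and 6 bp in intergenic sequence. Of the E14 clusters, 947 (43.2%, 41.1 to 45.3%) spanned exactly 2 bp from end to end. This share was 36.3% (33.2 to 39.6%) in introns within 10 kb, 38.4% in exons, 15.7% in intergenic sequence and 6.12% at annotated promoters. The dominant TSS was the first of the 2 bases in 472 clusters and the second in 475 in E14, the first in 452 and the second in 495 in A1, and in C7 416 and 527. At the other end, 229 clusters of E14 (10.4%) had an interquantile region over 20 bp wide, against 49.9% at annotated promoters.

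**Figure D4:**
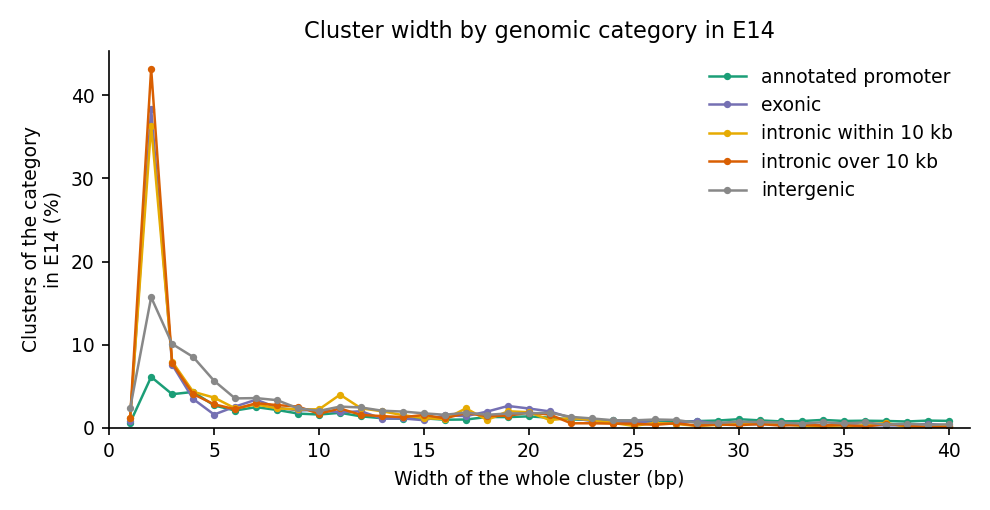
Share of E14 clusters of each genomic category (vertical axis, percent) with a given whole width from 1 to 40 bp (horizontal axis). Deep intronic clusters have the highest point at 2 bp, 43.2%, and annotated promoters the lowest, 6.12%.

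Opposite-strand neighbours were less frequent at deep intronic clusters than in the other categories. In E14, 218 of 2193 (9.94%, 8.76 to 11.3%) had a cluster on the other strand within 1000 bp, against 16.1% (13.7 to 18.7%) in introns within 10 kb, 24.0% in exons, 29.2% at annotated promoters and 43.7% in intergenic sequence. A1 and C7 gave 9.82% and 9.79% for the deep intronic ones. The share was lower than that of introns within 10 kb on 18 of 20 chromosomes (1 to 19 and X) and lower than those of promoters and intergenic clusters on 20 of 20. Of the 218, 36 were in Gm47283 and 14 in Gm45894, and 8.10% of E14 clusters had such a neighbour without Gm47283, Tsix and Gm45894. Upstream neighbours, which make a divergent pair, were found at 151, with a median of 196 bp between the dominant TSSs. An annotated start of the opposite strand lay within 500 bp of 2.96% of deep intronic clusters, 6.45% of intronic clusters within 10 kb and 23.7% of annotated promoter clusters.

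**Figure D5:**
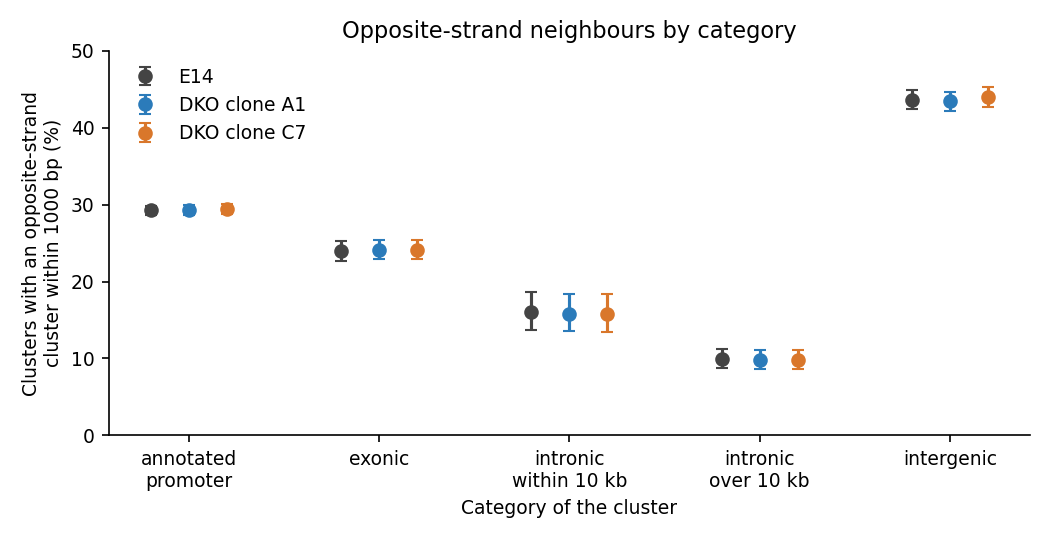
Share of clusters with an opposite-strand cluster of the same line within 1000 bp (vertical axis, percent) by category for E14, clone A1 and clone C7; bars are 95% Wilson intervals, which cover counting error only. Deep intronic clusters lie lowest in all lines, between 9.79 and 9.94%, and intergenic clusters highest.

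The question between lines was whether loss of PWWP2A and PWWP2B brought deep intronic starts that E14 lacks. Of the 2239 regions, 2163 (96.6%) had a cluster in all 3 lines, against 97.4% over all 33324 regions. Of 2159 regions with 1 cluster in each line, 2136 had the same start and end in all of them (98.9%, against 98.6% over all clusters). The authors joined clusters into consensus clusters across replicates. Whether the deposited clusters had passed this step is not given in the sources used here. If they had, shared edges would say little about the lines. How far such joining raised the share of regions present in all lines was not tested.

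In both clones and not in E14 there were 10 regions (0.447%, with 0.444% of all regions doing so). They lay in Asxl1, Rbm39, Nbea, Gm45894, Mras, Tns3, Map3k3, Fam208a, Myo10 and Wac. Of these 10, 6 were 1 bp wide in both clones. The widest was in Asxl1, a Polycomb-associated gene, at chr2:153370227-153370246, 24.4 kb into the gene, and its dominant TSS was at 153370246 in A1 and 153370227 in C7, the opposite ends of the same 20 bp. The cluster in Mras, a RAS-family GTPase, was 6 bp wide (chr9:99399895-99399900) and had its dominant TSS at 99399895 in both clones, and that in Gm45894 was also 6 bp wide (122894542 to 122894547). The 1 bp clusters included 1 in Rbm39, a splicing factor gene, 2 bp after an exon, and 1 in Fam208a, which encodes a subunit of the silencing complex HUSH.

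In E14 alone there were 7 regions (0.313%, with 0.228% of all regions), in Prrc2b, Focad, Lrmp, Abca16, Fgfr2, Nin and Gm26510. Of these, 6 were 1 bp wide and that in Lrmp was 3 bp wide. Taken singly, A1 had 32 regions that E14 lacked (1.43%, against 1.1% of all regions) and lacked 17 of E14 (0.759%, against 0.699%). C7 had 13 that E14 lacked (0.581%, against 0.765%) and lacked 31 (1.38%, against 0.738%). A1 alone held 22 and C7 alone 3. Of the 76 regions not in all lines, 42 (55.3%) were 1 bp wide wherever they were present, against 14 of 2163 (0.647%) of those in all lines. The lines also differed in the number of libraries merged, 3, 2 and 3, whose part in these counts was not tested.

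The dominant TSS was at the same base in all lines in 1258 of 2159 regions (58.3%, against 66.3% over all clusters). It matched E14 in 1516 regions in A1 and in 1628 in C7. Where it moved, the median move was 1 bp, with quartiles of 1 and 7 bp and a maximum of 85 bp. Of the 2159 regions, 938 were 2 bp wide in all lines, where a move could only be 1 bp. It moved downstream in both clones in 144 regions (6.67%, against 5.43%) and upstream in both in 105 (4.86%, against 4.84%), and in 215 regions both clones had the same new base. Among clusters wider than 10 bp in E14, 60.3% of the deep intronic ones kept the base in all lines, against 68.6% of all clusters of that width.

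The largest move shared by the clones was in Reps2, which encodes an EH-domain protein of endocytosis. On the minus strand of chromosome X its dominant TSS was at 162503108 in E14 and at 162503052 in A1 and C7, 56 bp downstream, while the interquantile width was 57 bp in all 3. Upstream moves of 27, 25 and 23 bp, each to the same base in both clones, were found in Gm30228, Etl4 and Igdcc4, and a downstream move of 20 bp in Prrc2b.

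The interquantile region was wider than in E14 in both clones in 109 of the 2159 regions (5.05%, against 12.5% over all clusters) and narrower in both in 49 (2.27%, against 3.99%). Among clusters over 10 bp wide the shares were 10.2% wider and 6.36% narrower for deep intronic clusters, and 18.2% and 6.03% for all clusters of that width. Neither share could be set against replicates.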

How the data were processed

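CAGE-seq of nuclear RNA was available for 8 libraries, 3 of E14, 2 of clone A1 and 3 of clone C7. Alignment by the authors used STAR 2.4.2a on mm10 and kept reads with 1 location. Clusters were called with CAGEr, and nearby ones on 1 strand were joined into consensus clusters across replicates. The deposited set pools the replicates of a line. Whether it holds these consensus clusters is not given in the sources used here. The values deposited by the authors and used here are positions, namely each cluster's start, end, dominant TSS and interquantile blocks, on no other scale; every deposited score is 0. Depth per cluster and the minimum signal of a cluster are not given in the sources used here.

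Categories came from GENCODE release 21 of mouse (M21), which is on the same assembly, in the order promoter (500 bp), exon, intron, intergenic, with the nearest gene start used where several genes held a cluster. Overlap was at least 1 bp on 1 strand. Shares carry 95% Wilson intervals and densities 95% Poisson intervals. Python 3.11.15, NumPy 2.4.6, SciPy 1.17.1 and Matplotlib 3.10.9 were used. Sequences were read from RefSeq promoters (GRCm38.p6) and from GENCODE transcripts, and none was read on chromosome 18. The category and overlap functions recovered 2000 of 2000 categories and 1000 of 1000 overlaps in simulated clusters.

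The clusters and gene lists were chosen with earlier results of these data known. Named genes were the 10 hosts with most clusters (by the lowest line, then the sum, then name), all regions in both clones or in E14 alone, the 5 farthest, 5 widest and 5 most moved clusters, up to 4 leading hosts a list (some are not reported here), the 5 closest upstream pairs, and Wtap, Hnrnpk, Nap1l1, Ptges3, Pwwp2a and Pwwp2b. Alternatives were the promoter window, the distance, strand, annotation, width and overlap rules, and each clone alone.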

Additional observations from a re-analysis of the deposited data

Results flagged for a closer look

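The clones differed from E14 in opposite directions in the number of deep intronic clusters. Clone A1 had 17 more than E14 and clone C7 had -18, that is, 2175 against 2193. As a share of all clusters of the line, the values were close, with overlapping Wilson intervals. They were 6.67% in E14 (6.41 to 6.95%), 6.70% in A1 (6.43 to 6.97%) and 6.62% in C7 (6.35 to 6.89%). The difference was not tested, since each line has a single merged set. A1 rests on 2 libraries and C7 on 3. The part of this in the counts was not tested.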

How the results depend on the processing

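Of 91 values under alternatives, 70 stayed within 1.5 times the value reported (counts) or within its 95% interval. A1 had the most deep intronic clusters in 11 of 11 settings and C7 the fewest in 10 of 11. The exception was an interquantile width of at least 3 bp, which left 1143 in E14, 1160 in A1 and 1148 in C7, a median width of 10 bp, 98.0% of regions in all lines, 3 regions in both clones and not in E14, and 1 in E14 alone. When regions were matched by the same dominant TSS, 39.6% were in all lines, 221 in both clones and not in E14, and 287 in E14 alone, and with a reciprocal overlap of 50% the share in all lines was 95.6%. Against E14, clone A1 taken singly gained 32 and lacked 17, and clone C7 taken singly lacked 31. The share with an opposite-strand cluster was 7.30% within 500 bp, 12.4% within 2000 bp, 6.89% upstream only and 8.10% without Gm47283, Tsix and Gm45894. The last alternative, chosen after seeing the data, gave a median of 39.2 kb from the gene start, and the 5′-most gene start gave 38.5 kb. A dominant TSS within 5 bp in all lines was found in 87.7%, against 83.2% over all clusters. Regions 2 bp wide in all lines met this limit by their width alone (938 of 938). Among clusters over 10 bp wide in E14 the share was 67.7% for deep intronic clusters and 75.7% for all clusters of that width. These alternatives change which clusters, neighbours or lines are counted, how clusters are matched between lines, or how a distance is measured.

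No paired analysis was possible because the libraries of each line were merged into 1 deposited set, and for the same reason no library was left out. The base pair at the TSS over all clusters was not run, as no genome sequence was used. Without counts, a cluster missing from a line cannot be told apart from one below the minimum signal.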

Other observations

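More deep intronic clusters lay on the plus than on the minus strand, 1251 against 942 in E14, 1260 against 950 in A1 and 1237 against 938 in C7. Gm47283, Tsix and Gm45894 are all plus-strand genes, and without them the numbers were 1131 and 942 in E14. Chromosome 4 held the most in E14 (184, 8.39%), followed by chromosome 2 (164). Chromosome Y held 85, of which 78 were in Gm47283. In 23 regions some line had a cluster of another category, exonic in 21 and annotated promoter in 2, as in Esrrb.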
